A study of Mus musculus with 12 samples.

Results

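The genes described here are a set of 38 mouse genes of macrophages and of leukocytes in general, read in total RNA from the humerus of mouse embryos at E14.5. The set comprised every non-control probe set whose platform annotation names exactly 1 gene, that gene being one of the 38. This gave 65 probe sets for 37 genes out of 36701 probe sets in all, 49 on array type A, 8 on B and 8 on C. No probe set carried Trem2, so that gene was not measured. The 2 groups were Runx2 wildtype and Runx2 -/- humeri at E14.5, untreated as far as the labels go, the latter lacking functional copies of the transcription factor gene Runx2 in all cells. Each genotype had 2 RNA pools, numbered replicates 1 and 2, of about 75 wild-type or about 60 Runx2 -/- humeri per pool. By the replicate numbers in the labels, every pool was hybridised to arrays A, B and C. A pool averages over many embryos, and whole humeri were taken, so that the values are of mixed tissue. In such bulk RNA, fewer cells of a type and less RNA per cell cannot be told apart.

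Macrophages enter the embryonic limb early and clear dying cells. Their identity rests on the transcription factor PU.1, the product of Spi1, and they sense and engulf material through Fc receptors, pattern recognition receptors, scavenger receptors and complement protein C1q. Osteoclasts, the bone-resorbing cells, arise from precursors of the same myeloid lineage and keep many of its genes. Runx2 is required for osteoblasts and for the maturation of cartilage before it is invaded by vessels and osteoclast precursors.

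PU.1 binds purine-rich DNA with a GGAA core, and the longer word GAGGAA was searched on both strands of the 250 bases before each annotated start (RefSeq, GRCm38.p6). Of the 38 genes, 28 had a promoter in the table, with 32 starts. The word was present in 16 of these 32 stretches (50%), in 15 genes, against 23.3% of 32851 stretches of equal length over all genes. A match is a description of the letters and no evidence of binding. The stretches below belong to the neighbouring complement genes C1qb and C1qc, to Laptm5, and to Lcp1, because results on these genes are given below, and they show a match close to the start, a match far from it and no match. GAGGAA, or TTCCTC where it lies on the other strand, is in capitals.
C1qb (chr4:136886201-136886450, minus strand): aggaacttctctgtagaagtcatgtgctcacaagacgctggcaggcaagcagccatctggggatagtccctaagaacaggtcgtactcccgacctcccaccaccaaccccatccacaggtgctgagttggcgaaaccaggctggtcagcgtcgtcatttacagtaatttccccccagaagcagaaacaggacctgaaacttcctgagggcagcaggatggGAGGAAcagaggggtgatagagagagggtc
C1qc (chr4:136892915-136893164, minus strand): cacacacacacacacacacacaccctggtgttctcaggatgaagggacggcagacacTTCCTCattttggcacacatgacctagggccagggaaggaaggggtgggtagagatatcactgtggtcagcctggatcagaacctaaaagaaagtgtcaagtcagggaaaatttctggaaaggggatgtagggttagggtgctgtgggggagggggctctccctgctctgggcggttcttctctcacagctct
Laptm5 (chr4:130913066-130913315, plus strand): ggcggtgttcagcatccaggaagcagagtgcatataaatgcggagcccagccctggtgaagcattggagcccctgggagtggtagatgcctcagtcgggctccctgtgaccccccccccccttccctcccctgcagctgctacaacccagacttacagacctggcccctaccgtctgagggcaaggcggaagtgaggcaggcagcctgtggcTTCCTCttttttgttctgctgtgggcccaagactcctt
Lcp1, upstream start (chr14:75130873-75131122, plus strand): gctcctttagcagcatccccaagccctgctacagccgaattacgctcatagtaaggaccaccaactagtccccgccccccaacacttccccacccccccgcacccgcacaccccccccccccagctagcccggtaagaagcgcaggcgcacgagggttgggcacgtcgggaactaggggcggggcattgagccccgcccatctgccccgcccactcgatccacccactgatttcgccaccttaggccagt
Lcp1, downstream start (chr14:75136175-75136424, plus strand): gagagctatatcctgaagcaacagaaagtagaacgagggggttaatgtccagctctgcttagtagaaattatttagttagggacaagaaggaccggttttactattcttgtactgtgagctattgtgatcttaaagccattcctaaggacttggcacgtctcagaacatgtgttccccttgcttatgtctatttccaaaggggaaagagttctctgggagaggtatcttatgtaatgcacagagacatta
The match lay 30 bases before the start in C1qb, 193 in C1qc and 38 in Laptm5, and neither Lcp1 stretch held one.

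Signals are MAS5 values, an array brightness on a linear scale, and a log2 difference is on the scale of log2(signal + pseudocount), which understates changes of dim probe sets. The 12 arrays had median signals between 37.5 and 60.4 intensity units. For replicates 1 and 2 on array A they were 47.4 and 37.5 in wild type and 46.0 and 39.4 in Runx2 -/-. In the same order they were 59.8 and 51.6, and 60.4 and 51.5, on array B. On array C they were 41.4 and 43.2, and 40.3 and 41.5. All replicate 1 arrays were read on one scanner and all replicate 2 arrays on another, so the replicate number equals a scan batch, and both genotypes lie in each batch. Control probe sets on array A correlated at 0.994 and 0.996 between arrays of the same number and at 0.966 and 0.952 between arrays of the same genotype, and array B gave the same order. On array C the order was turned, with 0.953 and 0.950 for the same number and 0.991 and 0.984 for the same genotype. Array C thus stood apart from A and B in how its arrays grouped, and its values are given apart from those of A and B, as labelled. On array C, a genotype difference and this grouping of the arrays cannot be told apart. On arrays A and B, 12 of 14 listed cartilage genes, 12 of 13 endothelial genes and 11 of 12 skeletal muscle genes were tested. These counts do not single out cartilage.

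Among the 65 probe sets, 28 for 20 genes passed the filter on low values (at least 2 of the 4 arrays with a signal above the 40th percentile of that array), 22 of them on arrays of type A or B, for 19 genes. In these 22 the log2 differences, Runx2 -/- minus wild type, ran both ways, from -0.80 to 0.72, with a median of -0.06, beside 0.01 over all 15601 probe sets tested on A and B. By limma with no block, 0 of the 28 reached an adjusted p of 0.05, against 0.0259% of 23193 probe sets, and 2 had an unadjusted p under 0.05, against 7.73%. The latter share differed by array type: 2.06% on A and B, with 1 of the 22, and 19.4% on array C, with 1 of 6. With the replicate number as a block, 1 of 28 passed, against 2.18% of all; leaving out array C, it was 1 of 22, against 2.2% (1.29% lower). That probe set was of Lcp1, which fell. Without array C, 8 of 22 had an unadjusted p under 0.05 with the block (36.4%), 5 lower and 3 higher in Runx2 -/- humeri, against 14.8% of all probe sets there (7.2% lower and 7.56% higher). Of the 22, 20 were on array A and 2 on B, whereas the 15601 were 7745 on A and 7856 on B. These shares thus compare unlike mixes of array types, which were fitted apart. The 5 lower were of Lcp1, Tyrobp, Cd68, Cd14 and Laptm5, and the 3 higher of C1qa, C1qb and Cx3cr1. These adjusted p-values, apart from that of Lcp1, missed the threshold, which does not show that the genes were alike in both genotypes.

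**Figure D1:**
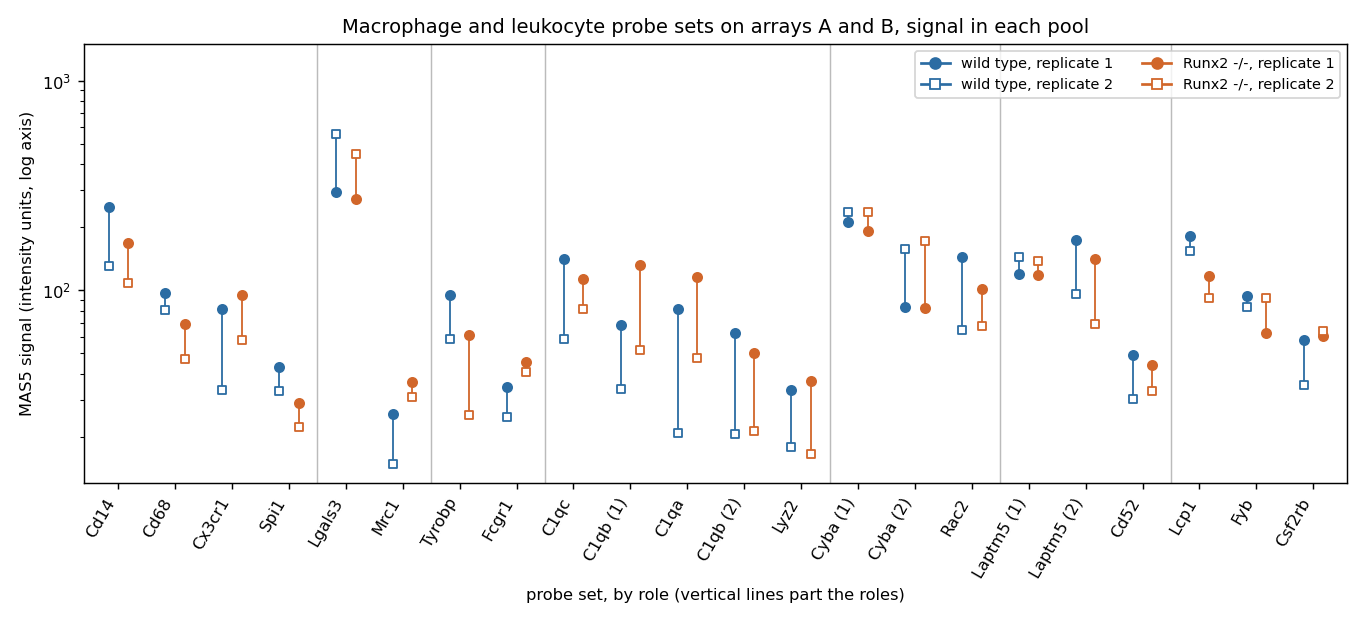
MAS5 signal (log axis) of the 22 macrophage and leukocyte probe sets tested on arrays A and B, in each of the 4 pools, with filled circles for replicate 1, open squares for replicate 2, blue for wild type and orange for Runx2 -/-; lines join the pools of a genotype, and (1) and (2) mark the probe sets of a gene from bright to dim. Both Runx2 -/- pools of Lcp1, Cd68 and Spi1 lie below both wild-type pools, whereas replicate 2 lies below replicate 1 in both genotypes for the C1q genes.

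Lcp1 encodes plastin of leukocytes, a protein that bundles actin filaments. Its brighter probe set on array A read 181.0 and 154.3 in wild-type replicates 1 and 2 and 116.6 and 91.7 in the Runx2 -/- replicates. The groups did not overlap, and the means were 168 ± 18.9 and 104 ± 17.6 (SD, n = 2). Lcp1 fell by 0.66 on the log2 scale (SE 0.14, limma adjusted p = 0.0264 with the replicate block), by 0.61 within scan batch 1 and by 0.71 within scan batch 2, and without the block the adjusted p was 0.59. The call with the block was also lost without the filter and without limma's variance trend, where 0 of the members passed. A dimmer Lcp1 probe set on array A, below the filter, read 29.3 and 3.1 in wild type and 10.8 and 6.6 in Runx2 -/-. Its groups overlapped, with log2 differences of -1.03 within scan batch 1 and 0.43 within scan batch 2. Other genes of signalling and the cytoskeleton gave no call. Fyb, an adaptor of immune cell adhesion, read 93.8 and 83.2 in wild type and 62.3 and 91.8 in Runx2 -/- on array B, with overlapping groups (log2 difference -0.19, adjusted p = 0.77 with the block). Csf2rb, the common beta chain of cytokine receptors, read 57.6 and 35.3 against 60.8 and 63.9. Both Runx2 -/- pools of Csf2rb were above both wild-type pools (log2 difference 0.37, adjusted p = 0.582), and a near-identical mouse gene, Csf2rb2, makes this probe set uncertain.

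Tyrobp encodes DAP12, the adaptor through which several myeloid receptors signal in macrophages and osteoclasts. It read 95.4 and 58.6 in wild type and 61.3 and 25.3 in Runx2 -/-, so that the lower wild-type pool lay within the range of the Runx2 -/- pools. Within scan batches it was lower by 0.58 and 1.02 on the log2 scale, and the fitted difference was -0.80 (SE 0.20; adjusted p = 0.0575 blocked, 0.856 unblocked). The high-affinity IgG receptor gene Fcgr1 went the other way, with 34.5 and 24.8 in wild type and 45.3 and 40.9 in Runx2 -/-. Its groups did not overlap (log2 difference 0.46, SE 0.24, adjusted p = 0.362), but its probe set has a suffix for probes shared with other transcripts. Of the other Fc receptor and adaptor genes, Fcgr2b, Fcgr3 and Fcer1g had no probe set over the filter.

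Among lineage regulator and surface marker genes, 3 of 4 outside array C were lower in Runx2 -/- humeri within both scan batches and 1 was higher, and 0 passed. Spi1 read 42.8 and 33.2 in wild type and 29.0 and 22.3 in Runx2 -/- (log2 difference -0.46, SE 0.26, adjusted p = 0.392 with the block). Cd68, a lysosomal membrane protein of phagocytes, read 96.9 and 80.7 against 68.8 and 46.8 (log2 difference -0.58, SE 0.18, adjusted p = 0.107). For both genes the Runx2 -/- pools lay below the wild-type pools without overlap. The Cd68 probe set has a suffix for probes shared with other transcripts. A second Cd68 probe set, below the filter, read at most 6.5 in any pool and was higher in Runx2 -/- humeri within both batches. Cd14, the co-receptor for bacterial lipopolysaccharide, read 250.8 and 131.0 against 168.4 and 108.8 (log2 difference -0.40, SE 0.13, adjusted p = 0.14). Its groups overlapped, and it was lower by 0.56 within batch 1 and by 0.25 within batch 2. Cx3cr1, the fractalkine receptor of resident macrophages and monocytes, read 81.8 and 33.4 in wild type and 94.8 and 57.6 in Runx2 -/- on array A (log2 difference 0.44, SE 0.19, adjusted p = 0.274), higher within each batch but with overlapping groups.

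The C1q genes encode the chains of the complement component that tags cells and complexes for uptake, made largely by macrophages. C1qa read 81.3 and 20.8 in wild type and 115.2 and 47.4 in Runx2 -/-. Within batches 1 and 2 it was higher in Runx2 -/- humeri by 0.47 and 0.97 on the log2 scale, and the fitted difference was 0.72 (SE 0.20; adjusted p = 0.0873 blocked, 0.999 unblocked). The brighter C1qb probe set read 68.5 and 33.9 against 131.9 and 51.8 (log2 difference 0.70, SE 0.19, adjusted p = 0.0698). A dimmer C1qb probe set did not share this, with 62.5 and 20.5 against 50.1 and 21.4 (log2 difference -0.12, adjusted p = 0.859), and its identifier suffix marks an incomplete probe set. C1qc on array A read 140.8 and 58.7 against 112.8 and 81.1 (log2 difference 0.06, adjusted p = 0.909), lower within batch 1 and higher within batch 2. The groups of all these probe sets overlapped. Within both batches, C1qa and the brighter C1qb probe set were higher in Runx2 -/- humeri, the latter by 0.88 and 0.52. Lyz2, lysozyme of macrophages and granulocytes, read 33.3 and 17.8 against 37.0 and 16.5 (log2 difference 0.02, adjusted p = 0.98), and may share signal with its close relative Lyz1.

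Scavenger and phagocytic genes were split. Mrc1, the mannose receptor, read 25.7 and 14.8 in wild type and 36.6 and 30.8 in Runx2 -/-. Its groups did not overlap, and it was higher by 0.42 and 0.79 within the batches (log2 difference 0.60, SE 0.29, adjusted p = 0.311). Lgals3, a galactoside-binding lectin that is abundant in macrophages and is also made by hypertrophic chondrocytes, read 294.1 and 557.5 against 271.6 and 449.7 (log2 difference -0.21, SE 0.10, adjusted p = 0.33). Of the NADPH oxidase, which makes superoxide in phagocytes, only Cyba and Rac2 had probe sets over the filter, and neither gave a call; Ncf4 and Cybb were below it. Cyba, its membrane subunit p22-phox, read 213.0 and 237.0 against 191.3 and 237.8 on its brighter probe set (log2 difference -0.07, adjusted p = 0.814). The GTPase gene Rac2 read 143.6 and 64.6 against 101.3 and 67.8 (log2 difference -0.21, adjusted p = 0.596), with the Runx2 -/- pools inside the range of the wild-type pools.

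Of the surface proteins shared by most leukocytes, Cd52 read 49.3 and 30.2 in wild type and 43.8 and 33.0 in Runx2 -/- (log2 difference -0.02, adjusted p = 0.977). Laptm5, a lysosomal protein of blood cells, read 173.2 and 95.5 against 141.1 and 68.7 on 1 probe set of array A (log2 difference -0.36, SE 0.15, adjusted p = 0.224), lower within both batches. A second Laptm5 probe set there, with a suffix for probes shared with other transcripts, read 120.2 and 144.5 against 118.3 and 138.0 (log2 difference -0.04, adjusted p = 0.916). The 2 probe sets also ran in opposite directions between the replicates.

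**Figure D2:**
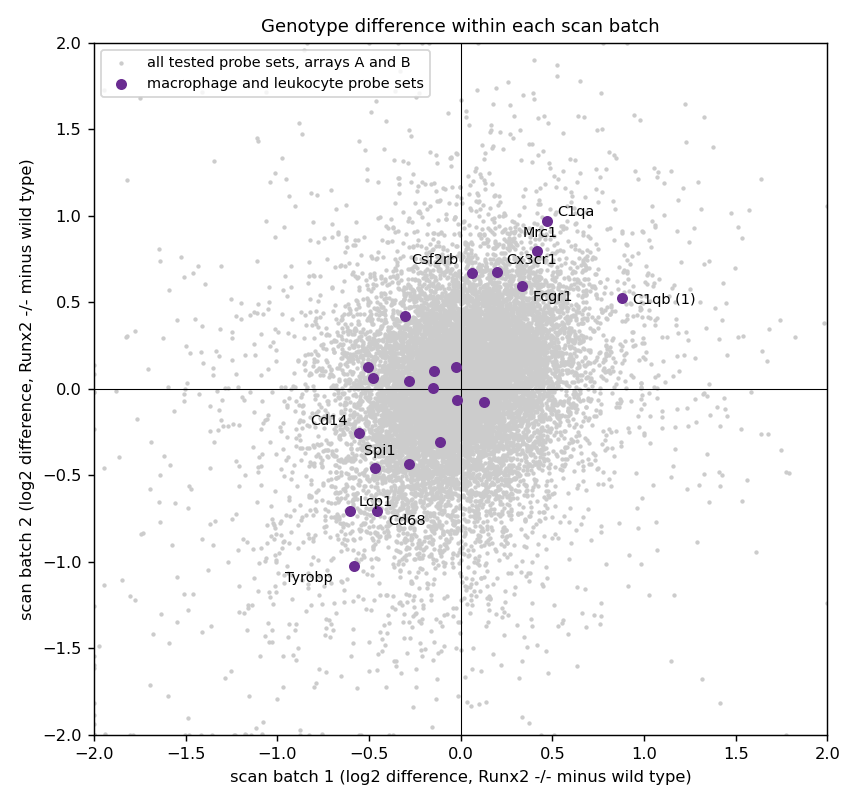
Log2 difference, Runx2 -/- minus wild type, within scan batch 1 (horizontal) and scan batch 2 (vertical) for the 22 macrophage and leukocyte probe sets (purple) and all 15601 probe sets tested on arrays A and B (grey; values beyond the axes are drawn at the edge). Of the 22, 8 are lower in both batches, among them Lcp1, Tyrobp, Cd68, Spi1 and Cd14, and 6 are higher in both, among them C1qa, the brighter C1qb probe set, Mrc1 and Fcgr1.

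Outside array C, 8 of the 22 probe sets were lower in Runx2 -/- humeri within both scan batches (36.4%), 6 were higher (27.3%) and 8 were mixed, against 28.0% lower and 32.1% higher over all probe sets tested there. The genotypes did not overlap for 3 that were lower (Lcp1, Cd68 and Spi1) and 3 that were higher (Fcgr1, Mrc1 and Csf2rb), 13.6% each, against 11.7% and 13.6% over all probe sets. These shares lay near the background and say nothing particular about the set.

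On array C, 6 probe sets of the set were tested and 0 passed, with the block (2.13% of all probe sets of array C) or without it (0.0263%), while 1 had an unadjusted p under 0.05 in each fit (21.1% and 19.4%). That was the brightest Laptm5 probe set, which read 610.4 and 807.8 in wild type as labelled and 1907.7 and 1194.1 in Runx2 -/- (log2 difference 1.09, SE 0.26; adjusted p = 0.113 blocked, 0.269 unblocked). Its groups did not overlap, but its suffix marks shared probes, and neither Laptm5 probe set of array A was higher in Runx2 -/- humeri. Cx3cr1 read 322.2 and 300.1 against 207.3 and 291.7 on array C (log2 difference -0.33, adjusted p = 0.497), opposite in sign to array A. Lgals3 read 192.8 and 38.7 against 167.8 and 151.2 (log2 difference 0.77, adjusted p = 0.49), also opposite to array A. C1qc (106.6 and 120.9 against 117.9 and 85.4) and Fyb (30.0 and 48.5 against 46.8 and 22.5) had overlapping groups. Vav1, a guanine nucleotide exchange factor of blood cells, was tested on this array alone, with 62.1 and 60.3 against 52.8 and 47.7 (log2 difference -0.24, adjusted p = 0.81).

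The other 17 measured genes had no probe set over the filter and were not tested: Adgre1, Aif1, C3ar1, Cd48, Cd53, Coro1a, Cybb, Fcer1g, Fcgr2b, Fcgr3, Lcp2, Msr1, Ncf4, Pf4, Plek, Ptpn6 and Ptprc. Their 26 probe sets read between 0.2 and 46.6 intensity units, and such signals do not show how much transcript was present. Adgre1, which encodes the macrophage antigen F4/80, read 15.9 and 12.9 in wild type and 24.5 and 26.9 in Runx2 -/- on its brighter probe set. Ptprc, which encodes CD45 of all leukocytes, read at most 7.3 on any of its 3 probe sets. Over all 37 probe sets below the filter, the genotypes did not overlap for 2 that were lower and 4 that were higher, against 14.1% and 15.1% of all probe sets below the filter. The lower ones, named after their values had been seen, were of Ncf4, a cytosolic oxidase subunit (20.7 and 23.8 against 2.7 and 1.9), and Ptpn6, the phosphatase SHP-1 (12.8 and 11.5 against 7.9 and 2.8). The higher ones were both Adgre1 probe sets, 1 of Coro1a (11.4 and 14.7 against 25.2 and 19.4) and a dim one of Fcgr1 on array C.

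Outside array C, 11 of the 22 probe sets, of 10 genes, differed between replicate 2 and replicate 1 in a limma fit with genotype as covariate (50%), against 23.5% of all probe sets tested there; over all array types it was 11 of 28, against 16.2%, and on array C 0 of 6, against 1.34%. Of the 22, 9 were lower in replicate 2 (40.9%), against 12.5% of all, and 2 were higher, against 11.0%. The median difference of the 22 was -0.43, beside -0.03 over all probe sets tested on A and B. Of the 22, 20 were on array A, whereas 7856 of all 15601 were on B. These shares thus compare unlike mixes of array types. On array A alone the medians were -0.61 for the 20 probe sets and -0.02 over all 7745. After quantile normalization these medians were -0.36 and 0.04, and with each array centred on its median -0.37 and 0.22. The size of the set's median thus depended on the scaling. The replicate number stands for the RNA pool and the scanner at once, so these cannot be told apart.

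**Figure D3:**
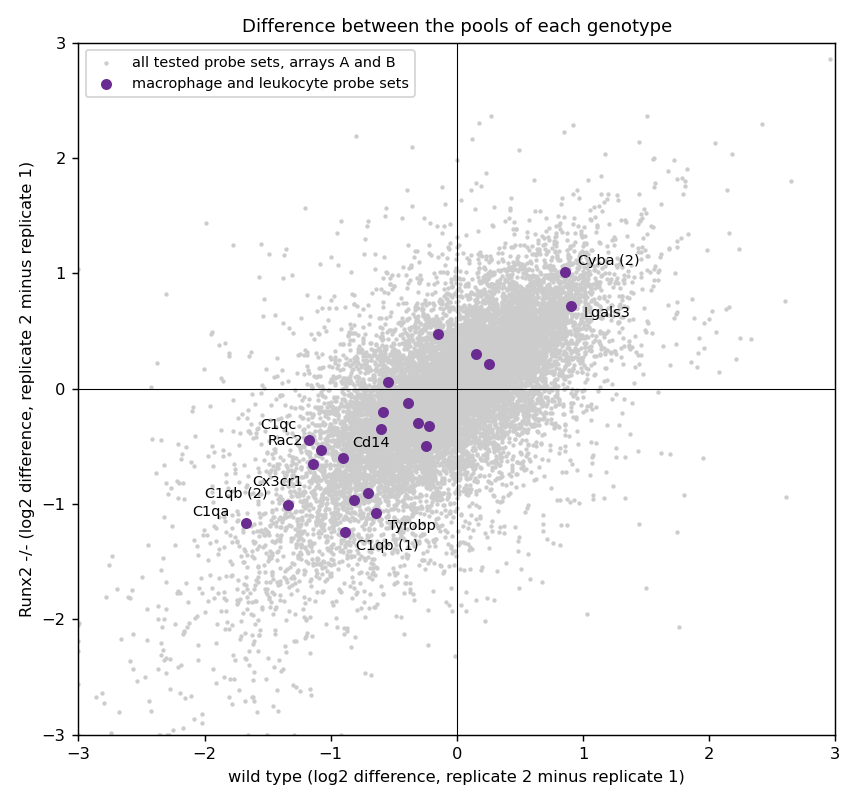
Log2 difference, replicate 2 minus replicate 1, in wild type (horizontal) and in Runx2 -/- (vertical) for the 22 macrophage and leukocyte probe sets (purple) and all probe sets tested on arrays A and B (grey; values beyond the axes are drawn at the edge). The C1q probe sets, Cx3cr1, Rac2, Cd14 and Tyrobp lie at the lower left, and Lgals3 and the dimmer Cyba probe set at the upper right.

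C1qa had replicate differences of -1.67 on the log2 scale in wild type and -1.17 in Runx2 -/- (fitted difference -1.42, SE 0.20, limma adjusted p = 0.000398). The C1qb probe sets had fitted differences of -1.06 (adjusted p = 0.00174) and -1.17 (0.00568), and C1qc on array A of -0.81 (0.00861), so that all C1q probe sets of array A were lower in replicate 2 in both genotypes. C1qc on array C did not share this (-0.13, adjusted p = 0.83). Cx3cr1 on array A (-0.90, adjusted p = 0.00661), the Laptm5 probe set of array A without a suffix (-0.89, 0.000989), Tyrobp (-0.86, 0.0107), Rac2 (-0.80, 0.0064) and Cd14 (-0.75, 0.00193) were lower as well. Lgals3 was higher in replicate 2, by 0.91 in wild type and 0.71 in Runx2 -/- (fitted difference 0.81, SE 0.10, adjusted p = 0.000174), as was the dimmer Cyba probe set (0.93, adjusted p = 0.000651), whose suffix marks shared probes. The brighter Cyba probe set gave no call between replicates (0.23, adjusted p = 0.225). Lcp1 (-0.27, adjusted p = 0.209), Cd68 (-0.37, 0.185) and Spi1 (-0.30, 0.491) gave no call between the replicates. Centring each array on its median moved the median replicate difference of all probe sets by 0.10, and by 0.24 on array A. The set then had 9 probe sets lower and 4 higher, and the calls over all probe sets went from 2007 lower and 1759 higher to 1379 lower and 3651 higher.

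**Figure D4:**
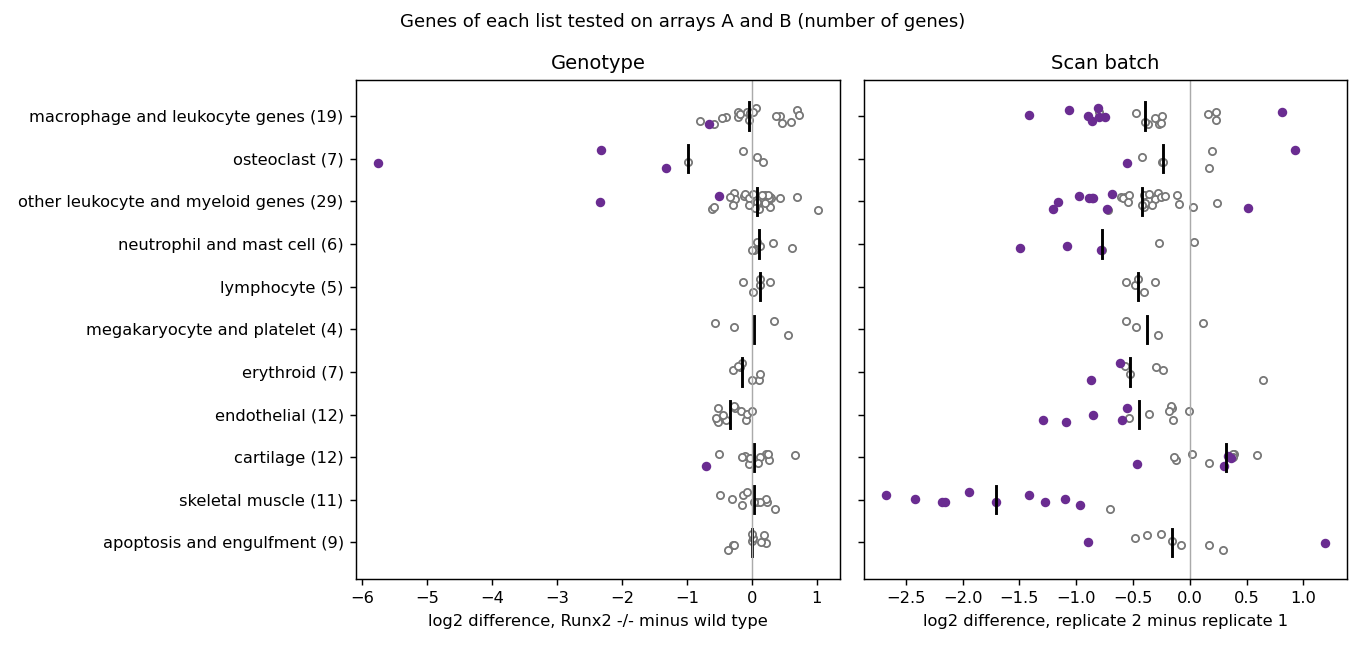
Log2 differences for genotype (left, fit with the replicate block) and for replicate 2 minus 1 (right) in each gene list, 1 point per gene from its brightest probe set tested on arrays A and B, with the number of genes in parentheses. Filled points passed at an adjusted p of 0.05, open points did not, and vertical bars are medians; osteoclast genes stand at a median of -0.98 for genotype and skeletal muscle genes at -1.70 between replicates.

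Gene lists of other cells were read from 1 probe set per gene outside array C, where 2.2% of all probe sets passed with the block and 14.8% had an unadjusted p under 0.05. Of 29 tested genes of a further leukocyte and myeloid list, 2 fell, 0 rose and 27 did not pass with the block (median 0.08). At an unadjusted p under 0.05 in limma with the block, 3 were lower and 4 higher. Ccl9, a chemokine of mouse macrophages and osteoclasts, went from 114.7 and 57.2 in wild type to 21.3 and 3.7 in Runx2 -/-, without overlap (log2 difference -2.34, SE 0.26; adjusted p = 0.00037 blocked, 0.321 unblocked). Csf3r, the receptor for granulocyte colony-stimulating factor, went from 378.8 and 187.5 to 260.8 and 130.8, with overlapping groups (log2 difference -0.51, SE 0.12; adjusted p = 0.0379 blocked, 0.999 unblocked). Lst1, a leukocyte transcript, read 60.5 and 20.7 against 85.6 and 75.7 and did not pass (log2 difference 1.02, adjusted p = 0.0504). Of 7 osteoclast genes, Mmp9, Ctsk and Acp5 fell with the block and 4 did not pass (median -0.98). The log2 difference was -5.75 for the gelatinase gene Mmp9 (adjusted p = 5.62e-11 blocked, 0.0286 unblocked). For the collagen-degrading protease gene Ctsk it was -1.32 (3.69e-05 blocked, 0.162 unblocked). For Acp5, the tartrate-resistant acid phosphatase gene, it was -2.32 (0.000899 blocked, 0.17 unblocked). Of 12 cartilage genes, Hapln1, the link protein gene, passed with the block and fell (log2 difference -0.71; adjusted p = 0.00177 blocked, 0.492 unblocked), and the other 11 did not pass. The 9 osteoclast probe sets on array A summed to 2005.5 and 1697.2 in wild type and 636.1 and 608.1 in Runx2 -/-, where the 20 of the macrophage and leukocyte set summed to 2272.2 and 1968.8 against 2017.2 and 1809.5. Much of the osteoclast sum was Mmp9 (812.4 and 618.1 against 10.0 and 3.4) and Ctsk (430.3 and 439.5 against 152.1 and 189.2). The 4 osteoclast genes that did not pass had log2 differences from -0.98 to 0.17, so the sum does not speak for the whole list. In the macrophage and leukocyte sum, which overlapped between genotypes, Lgals3 was the largest part in every pool (294.1 and 557.5 against 271.6 and 449.7). C1qb, Laptm5 and Cyba entered it with more than 1 probe set each. That sum does not measure macrophage content. The part of osteoclasts in the values of the macrophage and leukocyte set, which ran both ways, was not tested. For neutrophil and mast cell (6 genes), lymphocyte (5) and megakaryocyte and platelet (4) lists, 0 genes passed between genotypes, with medians of 0.11, 0.13 and 0.03; by limma with the block, 0, 0 and 1 of them had an unadjusted p under 0.05. Likewise 0 of 12 endothelial (median -0.33), 0 of 7 erythroid (-0.15), 0 of 11 skeletal muscle (0.04) and 0 of 9 apoptosis and engulfment genes (0.01) passed, with 4, 1, 1 and 0 at an unadjusted p under 0.05. The 13 endothelial probe sets of array A summed to 1297.3 and 912.4 in wild type and 1024.5 and 642.3 in Runx2 -/-, overlapping between genotypes.

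Between the replicates, where 23.5% of all probe sets on these arrays passed, the lists differed in their share of calls. Of 11 skeletal muscle genes, 10 were lower in replicate 2 and 0 higher, with a median of -1.70; their 10 probe sets on array A summed to 2673.0 and 3051.7 in the replicate 1 pools and 720.2 and 579.4 in the replicate 2 pools of wild type and Runx2 -/-. Of 12 endothelial genes, 5 were lower (median -0.45), of 7 erythroid genes 2 (median -0.52), of 29 further leukocyte and myeloid genes 8 were lower and 1 higher (median -0.42), and of 12 cartilage genes 1 was lower and 3 higher (median 0.32). Of 6 neutrophil and mast cell genes 3 were lower (median -0.78), of 9 apoptosis and engulfment genes 1 was lower and 1 higher (-0.16), and 0 of 5 lymphocyte (-0.46) and 0 of 4 megakaryocyte and platelet genes (-0.38) passed, with 1 and 0 at an unadjusted p under 0.05 in limma. None of the summed probe sets was at 0 in any pool. The part of tissue content, RNA yield or scanner in the replicate differences of the C1q genes was not tested.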

How the data were processed

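Total RNA (10 µg per pool, per the labels' protocols) was biotin-labelled and hybridised. Each deposited value is 1 intensity per probe set, made with MAS5 per the submitters' processing notes, which name no version. The 2% trimmed mean of every array was 100.0 to 100.1, which shows a global scaling before deposit, and nothing more was normalized. Genes were named from the platform annotation of 2016 supplied with the values (29131 of 36701 probe sets with 1 symbol, 724 with several, 6846 with none listed here). Scan settings, deposited as instrument files of other values, gave pixel sizes of 3 and 2.5 µm for replicates 1 and 2.

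Signals were put on the scale of log2(signal + pseudocount); the pseudocount was 7, 13 and 10 on A, B and C, the rounded 20th percentile of each type. After the filter, 23193 probe sets went into lmFit and eBayes with a variance trend, in limma 3.58.1 (R 4.3.3), 1 fit per array type, with Benjamini-Hochberg adjustment over all 3 types; 198 control probe sets were left out. The planned design had no block; the replicate block stands beside it, because both genotypes lie in each scan batch. All adjusted p-values are from limma, and unless a sentence says otherwise those printed with a genotype difference come from the fit with the block. SE are from the fit with the block. As a check of pairing, the departures from the genotype mean of the arrays sharing a number correlated at 0.764 on A, 0.595 on B and 0.056 on C, across probe sets, which are not independent. The limited number of arrays, 2 per genotype and type, limits the precision, and with the block a prior of 12.7 degrees of freedom on A comes from other probe sets. The pools are biological replicates by their labels. Without the block, p-values cover the spread between these pools, which includes the scanner, together with a prior from other probe sets (3.69 degrees of freedom on A). With the block, the replicate difference is taken out, and p-values cover only how far the genotype difference varied between the 2 scan batches, together with the prior. Scripts were tested on simulated data.

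The genes and lists were chosen with earlier results of these data known. By the rule for named genes, every member with a tested probe set is given by its brightest one (ranked by mean log2 signal among the probe sets of that type) and others where they differ in sign or call; further probe sets on arrays A and C are given so that the array types can be compared. Of other lists, at most 3 genes with the lowest p are named. The targeted gene is not analysed here and gives no check of the genotype labels. Alternatives are given in the closing section. Promoter sequences are from RefSeq, GRCm38.p6.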

Additional observations from a re-analysis of the deposited data

How the results depend on the processing

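The replicate block moved the count of probe sets called between genotypes from 6 to 505 and that of the macrophage and leukocyte genes from 0 to 1 (Lcp1). Without the block, the count of 6 became 11 with a 60th percentile filter, 99 with adjustment within array types, 10 with median centring, 2 without the variance trend, 2 with a pseudocount of 1, 12 with one of 32, 12 after quantile normalization and 10 without probe sets of cross-hybridizing suffixes; leaving out each pool in turn gave 5 to 22, with 0 to 0 of the set. With the block, 505 became 763 with centring, 110 without the filter, 6 without the trend and 851 with a pseudocount of 32. The set's count of 1 then became 5 with centring, 3 with adjustment within types, with a pseudocount of 32 or without the suffixes, 2 with a pseudocount of 1, and 0 without the filter or the trend. Between replicates, 3766 became 1335 without the trend, and 11 in the set became 7. The set's median genotype difference of -0.10 (28 probe sets) turned to 0.01 (0.00815) without the filter and to 0.026 within scan batch 2, and ranged from -0.26 to 0.092 with a pool left out. Without a pool, these differences changed sign: C1qa -0.12 to 1.55, the dimmer C1qb -0.79 to 0.55, C1qc -0.52 to 0.64 (A) and -0.37 to 0.050 (C), Cd14 -0.86 to 0.046, Cd52 -0.32 to 0.28, Cx3cr1 (A) -0.13 to 1.01, Cyba -0.22 to 0.079 and -0.45 to 0.56, Fyb -0.43 to 0.048 (B) and -0.57 to 0.23 (C), Laptm5 on A -0.84 to 0.12 and -0.17 to 0.084, Lgals3 -0.66 to 0.24 (A) and -0.26 to 1.80 (C), Lyz2 -0.43 to 0.48, and Rac2 -0.74 to 0.33. Others kept their sign but moved widely: Tyrobp -1.34 to -0.26, the brighter C1qb 0.082 to 1.32, Csf2rb 0.094 to 0.64, Cd68 -0.83 to -0.33, Mrc1 0.31 to 0.90, Fcgr1 0.27 to 0.65, Spi1 -0.62 to -0.31, Cx3cr1 (C) -0.56 to -0.089 and Lcp1 -0.82 to -0.49. The causes were not tested. With 3 arrays the blocked fit leaves no residual degrees of freedom, so it has no such check. Dim probe sets limit what can be said of 17 genes.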
